A study of Nicotiana tabacum with 18 samples.

Results

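The genes described here are the 4 tobacco genes that the study lists under the names CIPK5 and CIPK6, out of 69500 genes in the deposited table. They were chosen by name from the study's list of potassium (K+) channel and transport genes, and the rule used no measured value. The CIPK5 pair is Nitab4.5_0000462g0210, called CIPK5-A here, and Nitab4.5_0005171g0010, called CIPK5-B. The CIPK6 pair is Nitab4.5_0006408g0010, called CIPK6-A, and Nitab4.5_0004815g0040, called CIPK6-B. The letters are used only here. The names rest on similarity to Arabidopsis proteins, and whether the genes of a pair are duplicates of 1 gene was not tested.

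CIPKs are serine/threonine kinases that act with calcineurin B-like proteins (CBLs), small calcium sensors. A CBL that has bound calcium attaches to the regulatory domain of its CIPK, releases the kinase and often brings it to a membrane, where channels and transporters are the targets. In Arabidopsis, CIPK6 works with CBL4 on AKT2, a weakly rectifying K+ channel of the phloem, and CIPK5 with CBL1 is linked to GORK, the outward K+ channel of guard cells. These roles are known from Arabidopsis, not from tobacco.

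RNA was taken from middle leaves of field-grown Nicotiana tabacum at 70 days, and 18 libraries were sequenced, 3 for each of 6 groups. In the G70 cross, G70 (group HP1) was the female parent, GDH11 (HP2) the male parent and G70×GDH11 the hybrid (H). In the K326 cross, K326 (LP1) was the female parent, GDH11 the male parent again, in libraries of its own (LP2), and K326×GDH11 the hybrid (L). The study chose H as its strong and L as its weak combination for leaf K+ content, and it asked which K+ genes of a hybrid lay outside the range of both parents. Each sample mixed leaves of several plants of a plot. The labels say only that the libraries are replicates, so p-values measure the spread between these 3 libraries per group. The labels name no transgene and no treatment.

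Values are FPKM, fragments divided by transcript length and by how many fragments that library had mapped, so that levels of different genes can be compared per length. The FPKM of a library summed to between 756862 and 818037, and between 27527 and 33091 genes had at least 1 FPKM. Reads per gene were not given, so no counting error was computed, and the low CIPK5 values are less precise than the CIPK6 values to an unknown degree. Libraries of a group did not always resemble each other. On the first principal component (PC1) of log2(FPKM + 1), computed without the 4 genes and holding 38.1% of the variance, 8 libraries lay below 0 (from -135.8 to -35.4) and 10 above 0 (from 32.3 to 72.2). The libraries below 0 were HP1 replicate 1, H replicates 1 and 2, HP2 replicate 1, L replicates 2 and 3, and LP2 replicates 2 and 3. HP1 replicate 1, H replicate 3 and HP2 replicate 1 stood opposite the other libraries of their groups and are absent from a supplementary list of library values in the study, which gives no reason. L replicate 1 and LP2 replicate 1 also stood opposite the other libraries of their groups, and they were left out only 1 at a time. LP2 replicate 2 was the farthest library, and it had the fewest genes at 1 FPKM or more (27527, beside 31474 in HP1 replicate 1, the next lowest). In LP2 replicate 2 44.0% of genes were at 0, where the median library had 38.9%. Results are therefore given with and without HP1 replicate 1, H replicate 3, HP2 replicate 1 and LP2 replicate 2.

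CIPK5-A was a gene of low level. In HP1 it had 1.12, 4.30 and 3.63 FPKM (replicates 1, 2 and 3), against 0.74, 0.45 and 1.81 in H and 2.19, 1.49 and 1.85 in HP2. In the K326 cross it had 0.98, 0.54 and 0.79 FPKM in LP1, 1.61, 1.48 and 3.51 in L, and 2.79, 1.11 and 0.69 in LP2. The lowest library was H replicate 2 and the highest HP1 replicate 2, with 12 of 18 libraries at or above 1 FPKM. The group means rose in the order LP1 (0.770 ± 0.221 FPKM, SD, n = 3), H (1.00 ± 0.716), LP2 (1.53 ± 1.11), HP2 (1.84 ± 0.350), L (2.20 ± 1.14) and HP1 (3.02 ± 1.68), and each group overlapped its neighbours in this order. All libraries of L, HP1 and HP2 lay above all libraries of LP1, a separation that 15.3%, 5.96% and 6.08% of the 34960 genes that reached 1 FPKM in 3 or more libraries also showed.

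CIPK5-B was as low but varied more. It had 6.53, 2.77 and 3.34 FPKM in HP1, 2.87, 3.36 and 0.94 in H, and 7.15, 0.42 and 1.52 in HP2. It had 1.03, 1.37 and 0.68 FPKM in LP1, 1.93, 4.54 and 7.23 in L, and 1.82, 0.12 and 2.55 in LP2. The highest library was L replicate 3 and the lowest LP2 replicate 2, a 60.3-fold range. The group means rose from LP1 (1.03 ± 0.345 FPKM) through LP2 (1.50 ± 1.25), H (2.39 ± 1.28), HP2 (3.03 ± 3.61) and HP1 (4.21 ± 2.03) to L (4.57 ± 2.65), again with overlap between all neighbours. L and HP1 lay wholly above LP1, as did 15.3% and 5.96% of all genes, and HP1 lay wholly above LP2, as did 6.82%.

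The summed FPKM of the CIPK5 pair was steadier than either gene in some groups. In HP1 the sums were 7.65, 7.07 and 6.97 FPKM, a coefficient of variation of 5.08%, while the genes alone varied by 55.6% and 48.1%. In HP1 replicate 1 CIPK5-A gave 14.6% of the sum, and in replicates 2 and 3 it gave 60.8% and 52.1%. In H the sums were 3.61, 3.81 and 2.75 FPKM, with CIPK5-A at 20.5%, 11.8% and 65.8%. The gene that gave most of the sum thus differed between libraries of 1 group, and CIPK5-A gave more than 50% in 8 of 18 libraries. Every H sum lay below every HP1 sum, but the HP2 sums of 9.34, 1.91 and 3.37 FPKM spanned both. The sums in LP1 were 2.01, 1.91 and 1.47 FPKM, below all sums of HP1, H and L, where L had 3.54, 6.02 and 10.74. The sums in LP2 were 4.61, 1.23 and 3.24 FPKM and overlapped those of LP1 and L. These sums were described and not tested, and how often sums of other gene pairs separate groups was not computed.

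CIPK6-A was far more abundant. It had 23.76, 106.94 and 128.86 FPKM in HP1, 34.38, 38.27 and 181.97 in H, and 61.53, 79.48 and 116.47 in HP2. It had 100.49, 161.70 and 69.63 FPKM in LP1, 134.83, 59.58 and 92.49 in L, and 113.27, 4.60 and 52.85 in LP2. H replicate 3 was the highest library of all and stood apart from the other H libraries, and LP2 replicate 2 was the lowest. The group means of HP1 (86.5 ± 55.4 FPKM), H (84.9 ± 84.1) and HP2 (85.8 ± 28.0) were close, and those of LP2 (56.9 ± 54.4), L (95.6 ± 37.7) and LP1 (111 ± 46.9) came from overlapping libraries. No group was separated from any other.

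CIPK6-B followed the same libraries at a somewhat higher level. It had 31.65, 150.87 and 153.38 FPKM in HP1, 46.58, 72.12 and 276.45 in H, and 55.00, 133.95 and 161.95 in HP2. It had 161.98, 199.08 and 150.84 FPKM in LP1, 156.91, 48.33 and 80.72 in L, and 145.39, 6.54 and 64.05 in LP2. H replicate 3 was again the highest and LP2 replicate 2 the lowest. The means rose from LP2 (71.99 ± 69.8 FPKM) through L (95.3 ± 55.7), HP1 (112 ± 69.6), HP2 (117 ± 55.5) and H (132 ± 126) to LP1 (171 ± 25.3), and all neighbours overlapped. LP1 lay wholly above LP2, as did 9.09% of all genes. The CIPK6 pair summed to between 11.1 FPKM (LP2 replicate 2) and 458 FPKM (H replicate 3), which was between 7.24 and 189 times the sum of the CIPK5 pair in the same library.

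**Figure D1:**
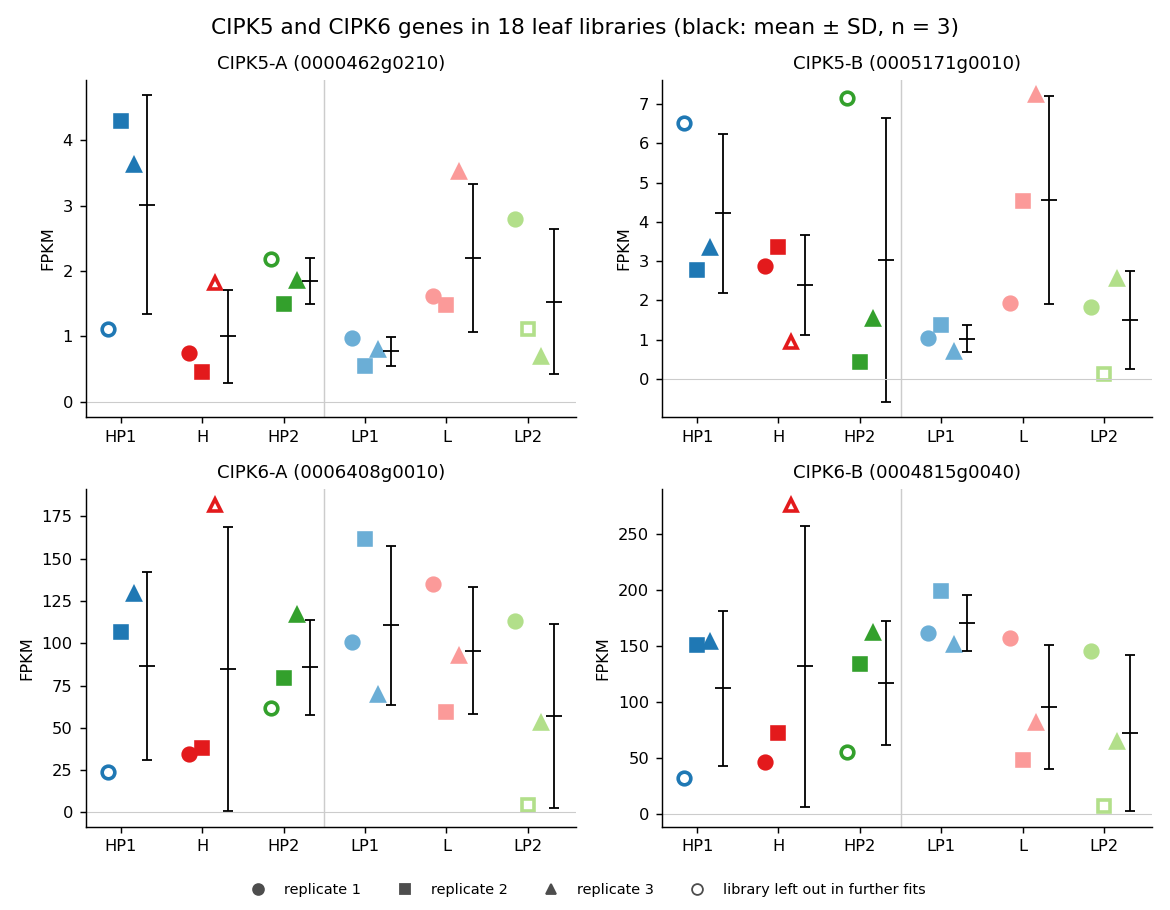
FPKM (vertical axis) of each CIPK gene in the 6 groups, with 1 symbol per library, its shape giving the replicate number, and the mean with SD (n = 3) in black beside it. Open symbols are HP1 replicate 1, H replicate 3, HP2 replicate 1 and LP2 replicate 2, and in the CIPK6 panels they include the highest library (181.97 and 276.45 FPKM) and the lowest (4.60 and 6.54 FPKM).

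**Figure D2:**
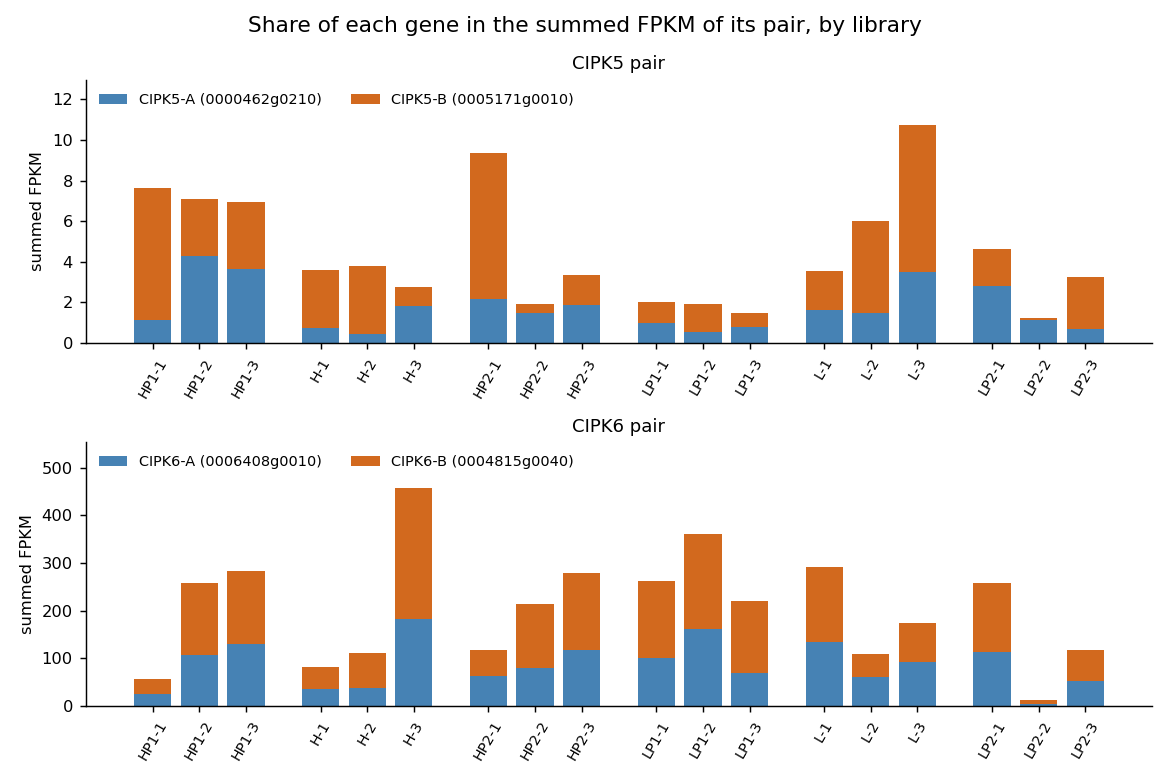
Summed FPKM of the CIPK5 pair (top) and of the CIPK6 pair (bottom) in each library, named by group and replicate, with the part of each gene in colour. The CIPK5 sums of HP1 lie between 6.97 and 7.65 FPKM with very different parts, while the part of CIPK6-A in the CIPK6 pair lies between 31.6% and 55.2%.

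The next question was whether H differed from its parents in these genes. Differences were tested on log2(FPKM + 1) with limma's moderated test in 1 fit over the 9 libraries of the cross, and a gene was called when its Benjamini-Hochberg adjusted p did not exceed 0.05 and its log2 fold change was 1 or larger in either direction. This scale understates changes of genes near 1 FPKM, which includes the CIPK5 pair. In leaf RNA, fewer cells that express a gene and less RNA per cell cannot be told apart. Tobacco is allotetraploid, and reads may be divided between near-identical genes, so that values of single genes of a pair are less certain.

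Over all 9 libraries, 0 of the 4 genes were called between H and HP1, where 0.488% of 33991 genes were called. The same held for H against HP2 (0.421% of genes called), for H against the mid-parent, taken as the average of the parents' log2 means (0.482%), and for HP1 against HP2 (0.462%). With an unadjusted p under the same limits, limma also called 0 of 4 in each of these, beside 1.5%, 1.39%, 1.18% and 1.36% of all genes. CIPK5-A had the most negative value, with a log2 fold change of -0.96 ± 0.38 (SE) against HP1 (95% interval from -1.81 to -0.10, adjusted p = 1) and -0.76 ± 0.33 against the mid-parent (interval from -1.50 to -0.018, adjusted p = 1.00). Its 3 H libraries all lay below the mid-parent mean, at -0.90, -1.16 and -0.21 on the log2 scale, as did those of 12.3% of all genes. CIPK5-B differed from the mid-parent by -0.29 ± 0.53, CIPK6-A by -0.28 ± 0.66 and CIPK6-B by -0.0028 ± 0.70, each with a 95% interval that reached beyond -1. Over all 9 libraries these data could therefore neither show a log2 change of -1 in these 3 genes nor show its absence.

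With HP2 replicate 1, H replicate 3 and HP1 replicate 1 left out, so that each group kept 2 libraries, 3 of the 4 genes were called lower in H than in HP1, while 6.95% of 33033 genes were called in this comparison and 4.34% were called lower. CIPK5-A fell by 1.64 (SE 0.21, adjusted p = 0.0136), CIPK6-A fell by 1.67 (SE 0.26, adjusted p = 0.0212) and CIPK6-B fell by 1.38 (SE 0.27, adjusted p = 0.0351) on the log2 scale. CIPK5-B was at 0.02 ± 0.30. Against HP2, CIPK6-A fell by 1.38 (adjusted p = 0.0305) and CIPK6-B fell by 1.33 (adjusted p = 0.0379), among 6.52% of genes called and 3.91% called lower, while CIPK5-A was at -0.75 (adjusted p = 0.0766) and CIPK5-B at 1.12 (adjusted p = 0.0696). Against the mid-parent, CIPK5-A fell by 1.19 (adjusted p = 0.0132), CIPK6-A by 1.53 (adjusted p = 0.0125) and CIPK6-B by 1.35 (adjusted p = 0.0185), among 8.55% of genes called and 4.87% called lower. Between HP1 and HP2, 0 of 4 were called (0.354% of genes). The 17 to 19 other alternatives of each of these comparisons called none of the 4 genes against a parent or the mid-parent of H, with adjusted p between 0.188 and 1.

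The removed libraries were those of the G70 cross that stood opposite their groups on PC1. Leaving them out made the spread within groups smaller, with an SE of 0.26 for CIPK6-A against HP1 in place of 0.77. The p-values of this fit therefore overstate the precision. Both remaining H libraries thus lay below 0 and all 4 remaining parental libraries above 0. Hybrid and side of PC1 cannot be told apart in this fit. Among libraries on the same side, the CIPK6 genes in H did not lie below both parents. Below 0, CIPK6-A had 34.38 and 38.27 FPKM in H, between 23.76 in HP1 and 61.53 in HP2. Above 0, it had 181.97 FPKM in H, higher than the 106.94 and 128.86 of HP1 and the 79.48 and 116.47 of HP2. CIPK6-B in H was likewise above all 4 parental libraries on the upper side, and on the lower side its 46.58 and 72.12 FPKM in H stood beside 31.65 in HP1 and 55.00 in HP2. CIPK5-A was lower in H than in HP1 on both sides, at 0.74 and 0.45 against 1.12 FPKM below 0 and at 1.81 against 4.30 and 3.63 above 0. CIPK5-B was too, at 2.87 and 3.36 against 6.53 FPKM and at 0.94 against 2.77 and 3.34. Against HP2, both genes in H were lower below 0, where HP2 had 2.19 FPKM of CIPK5-A and 7.15 of CIPK5-B. Above 0 they lay between the HP2 libraries, with 1.49 and 1.85 FPKM of CIPK5-A and 0.42 and 1.52 of CIPK5-B. With 1 to 2 libraries per group on a side, no test was run, and the part of the PC1 difference in the calls could not be tested.

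**Figure D3:**
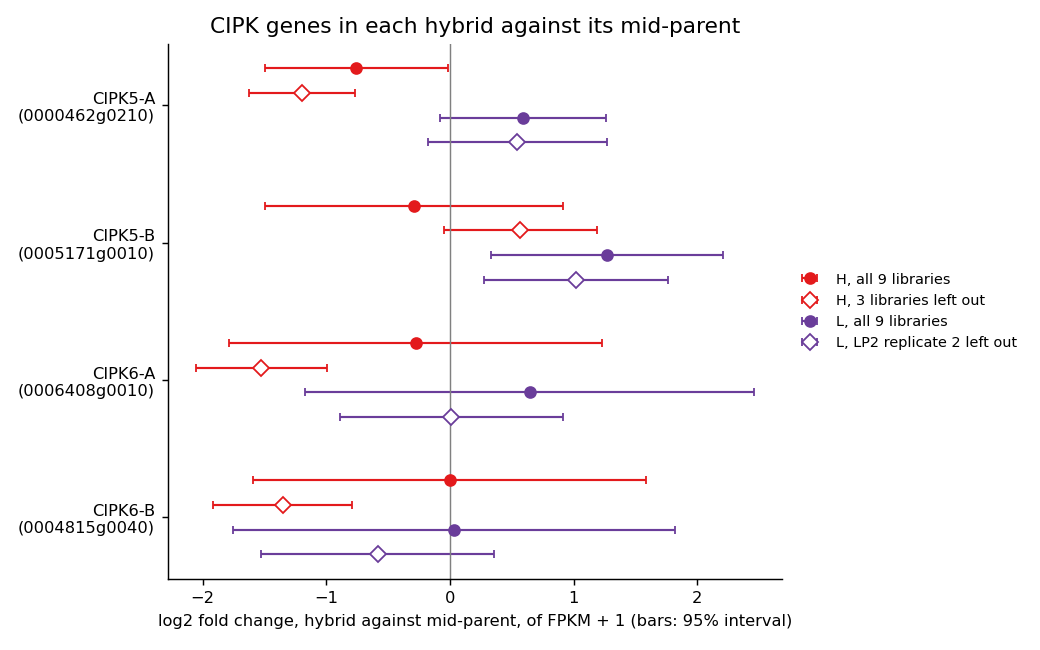
Log2 fold change of FPKM + 1 of each hybrid against its mid-parent (horizontal axis) for the 4 genes, with 95% intervals from limma. Filled circles are fits over all 9 libraries of a cross, and open diamonds are fits without 3 libraries of the G70 cross (red) or without LP2 replicate 2 (purple). For H, CIPK6-A moves from -0.28 to -1.53 and CIPK6-B from -0.0028 to -1.35 when the libraries are left out.

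In the K326 cross, 0 of the 4 genes were called between L and LP1 (0.17% of 33493 genes called), L and LP2 (0.266%), L and the mid-parent (0.206%) or LP1 and LP2 (0.2%). At an unadjusted p, limma called 1 of 4, CIPK5-B, in L against LP1 (6.59% of genes called on this rule), LP2 (2.65%) and the mid-parent (2.73%), and 0 of 4 between LP1 and LP2 (6.07%). Called higher in L on this rule were 3.16%, 1.62% and 1.38% of genes. CIPK5-B was higher in L by a log2 of 1.35 ± 0.48 than in LP1 (adjusted p = 0.301), by 1.19 ± 0.48 than in LP2 (adjusted p = 0.703) and by 1.27 ± 0.42 than the mid-parent (95% interval from 0.33 to 2.21, adjusted p = 0.417). All 3 L libraries lay above the mid-parent mean, by 0.47, 1.39 and 1.96, as did those of 39.2% of all genes. These results did not pass the adjustment over all genes under the alternatives run, whose adjusted p against the mid-parent ranged from 0.168 to 0.999. The median of all genes tested was 0.22 higher in L than in LP2 and 0.13 higher than the mid-parent, and the CIPK5-B values should be read against these. Without LP2 replicate 2 these medians were 0.047 and 0.037.

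CIPK5-A in L was at 0.81 ± 0.34 against LP1 (adjusted p = 0.376), 0.37 ± 0.34 against LP2 and 0.59 ± 0.30 against the mid-parent. Its 3 L libraries also lay above the mid-parent mean, by 0.35, 0.28 and 1.14. On PC1, L replicate 1 lay above 0 with all LP1 libraries and LP2 replicate 1. Its 1.93 FPKM of CIPK5-B exceeded their 1.03, 1.37, 0.68 and 1.82. L replicates 2 and 3 lay below 0 with LP2 replicates 2 and 3, and their 4.54 and 7.23 FPKM exceeded 0.12 and 2.55. CIPK5-A did not keep this order, since LP2 replicate 1 (2.79 FPKM) was above L replicate 1 (1.61).

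The CIPK6 values in L had no clear direction. Against LP1, CIPK6-A was at -0.20 ± 0.93 and CIPK6-B at -0.99 ± 0.92, and against LP2 they were at 1.49 ± 0.93 and 1.05 ± 0.92. The parents themselves differed most in these genes, with LP1 above LP2 by 1.69 ± 0.93 for CIPK6-A (adjusted p = 0.481) and by 2.04 ± 0.92 for CIPK6-B (adjusted p = 0.447), beside a median of 0.20 over all genes. LP2 replicate 2 decided these sizes. Without it, LP1 minus LP2 was 0.42 for CIPK6-A and 0.80 for CIPK6-B, beside a median of 0.0099 over all genes. L minus LP2 was 0.22 and -0.18. CIPK5-B in L against LP2 then was at 0.69 in place of 1.19, and against LP1 it stayed at 1.35.

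Comparisons between the crosses used 1 fit over all 18 libraries. None of the 4 genes was called between H and L (0.157% of 34960 genes called) or between the 2 sets of GDH11 libraries, HP2 and LP2 (0.00286%), and limma also called 0 of 4 in both at an unadjusted p (1.82% and 1.29% of all genes). H minus L was -0.68 ± 0.37 for CIPK5-A, -0.68 ± 0.59 for CIPK5-B, -0.53 ± 0.92 for CIPK6-A and 0.20 ± 0.93 for CIPK6-B. GDH11 is the same line in both crosses by its labels. Its CIPK6 levels were apart by a log2 of 1.37 ± 0.92 (CIPK6-A) and 1.37 ± 0.93 (CIPK6-B), which fell to 0.10 and 0.14 without LP2 replicate 2. The CIPK5 genes were at 0.25 ± 0.37 and 0.46 ± 0.59.

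The effect of H minus the effect of L, each against its own mid-parent, asks whether the hybrids differ in their departure from the parents. It was not called for any of the 4 genes (0.083% of genes called). At an unadjusted p, limma called both CIPK5 genes, beside 2.62% of all genes. The difference was -1.35 ± 0.46 for CIPK5-A (95% interval from -2.32 to -0.37, adjusted p = 0.821) and -1.56 ± 0.72 for CIPK5-B (interval from -3.09 to -0.032, adjusted p = 0.968). For CIPK6-A it was -0.92 ± 1.13 and for CIPK6-B -0.03 ± 1.14. Over all genes the median of this difference was -0.17, and -0.088 without LP2 replicate 2. Without the 3 libraries of the G70 cross, CIPK5-A was at -1.78 ± 0.41 (adjusted p = 0.167) and CIPK5-B at -0.70 ± 0.60 (adjusted p = 0.650), so CIPK5-B no longer passed the unadjusted threshold. Nor did it without LP2 replicate 2, at -1.31 ± 0.68 (adjusted p = 0.825).

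How the genes of a pair moved together across libraries was measured by the correlation of their deviations from the group means of log2(FPKM + 1), with all orders within groups as the exact permutation test. Adjustment was over the 6 pairs of the 4 genes. The CIPK6 genes moved together, with Pearson's r of 0.97 (p = 2.14e-05, adjusted p = 0.000129, the smallest that these orders can give) and Spearman's rho of 0.93 (adjusted p = 0.000129) over 18 libraries. Without the 2 libraries that deviated most in CIPK6-A, r was 0.95. Within the crosses it was 0.96 (G70) and 0.98 (K326). Pooled over the 18 libraries, r of log2(FPKM + 1) itself, with group means kept, was 0.96. Since the libraries form clusters on PC1, this r was also taken within each. It was 0.95 in the 8 libraries below 0 (exact permutation p = 0.00404, adjusted p = 0.0243) and 0.76 in the 10 above 0 (permutation p = 0.00613, adjusted p = 0.0368), with rho of 0.79 (adjusted p = 0.110) and 0.71 (adjusted p = 0.0808). Without the 2 libraries farthest from the cluster's median of CIPK6-A, r was 0.59 below 0 and 0.81 above 0. Below 0 these were LP2 replicate 2 (4.60 FPKM) and L replicate 3 (92.49 FPKM), the lowest and the highest there.

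The ratio of CIPK6-A to CIPK6-B ranged 2.67-fold, from 0.462 to 1.23, while the summed level of the pair ranged 41.2-fold. CIPK6-A gave between 31.6% (LP1 replicate 3) and 55.2% (L replicate 2) of the pair's sum, with a median of 42.7%. CIPK6-B was the higher gene in 15 of 18 libraries, and CIPK6-A in L replicates 2 and 3 and HP2 replicate 1. The share in L, 46.2%, 55.2% and 53.4%, was above those of its parents in LP1 (38.3%, 44.8% and 31.6%) and LP2 (43.8%, 41.3% and 45.2%) without overlap. This separation was noticed in the values and was not tested, and how often other gene pairs show one was not computed.

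The CIPK5 genes did not show such a relation in their deviations. Their deviations had r of -0.08 (exact permutation p = 0.771) and rho of -0.06 over 18 libraries, with -0.34 within the G70 cross and 0.30 within the other. With group means kept, r of log2(FPKM + 1) was 0.30 pooled over the 18 libraries. Within the PC1 clusters this r was 0.48 in the 8 libraries below 0 (exact permutation p = 0.229, adjusted p = 0.344) and 0.72 in the 10 above 0 (permutation p = 0.0183, adjusted p = 0.0548). Neither passed the threshold after adjustment over 6 pairs. Without the 2 farthest libraries these values were 0.03 and 0.78. The rho was 0.76 below 0 (permutation, adjusted p = 0.110) and 0.71 above 0 (adjusted p = 0.0808). For the CIPK6 pair rho was 0.79 and 0.71 with the same adjusted p, so within the clusters rho of both pairs was similar. Across names, the deviations of CIPK5-A followed those of CIPK6-A and CIPK6-B with r of 0.58 and 0.54 (adjusted p = 0.259 for both), and those of CIPK5-B with -0.02 and -0.17. In the G70 cross alone, CIPK5-A was at 0.88 and 0.77 with the CIPK6 genes and CIPK5-B at -0.62 and -0.77, given as description. In the K326 cross CIPK5-A was at 0.32 and 0.34 and CIPK5-B at 0.60 and 0.49, so the sign for CIPK5-B differed between the crosses.

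**Figure D4:**
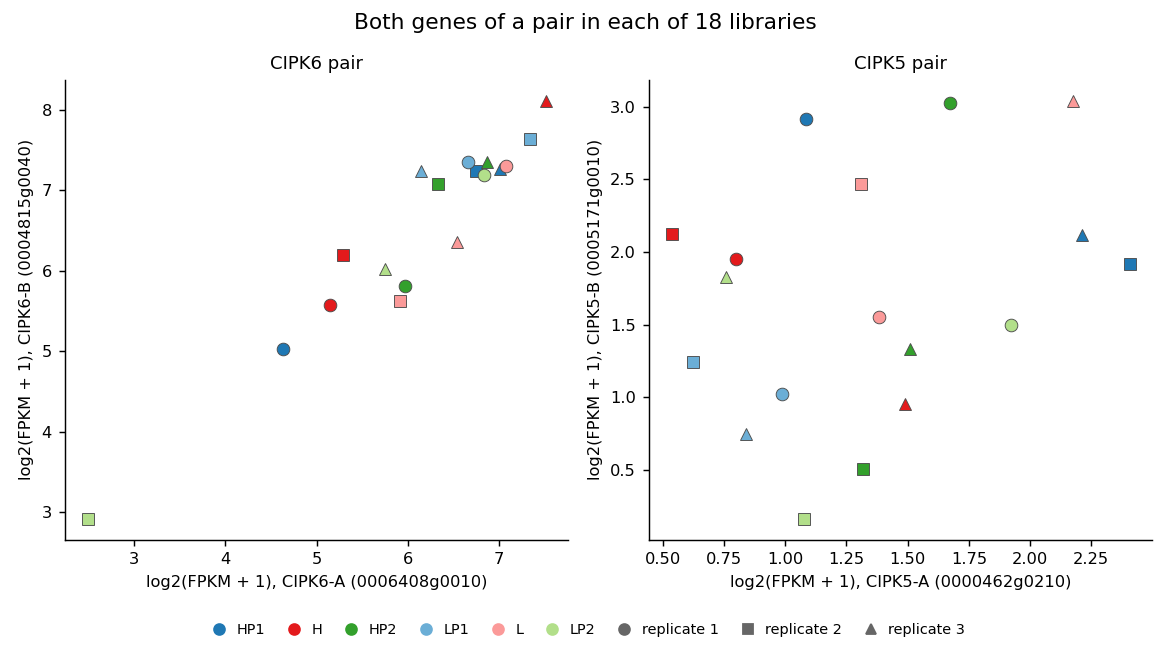
Log2(FPKM + 1) of the genes of the CIPK6 pair (left) and the CIPK5 pair (right) against each other, with 1 point per library, coloured by group and shaped by replicate. The CIPK6 points follow 1 line (r = 0.96), and the CIPK5 points scatter (r = 0.30). For deviations from group means, which are not drawn, r was 0.97 and -0.08.

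High r with a CIPK6 gene was not limited to the other gene of the pair. Pooled over the 18 libraries, the other CIPK6 gene held rank 56 among 34959 genes by r with CIPK6-A and rank 54 with CIPK6-B. The median r over these genes was 0.40 and 0.36, and 5065 and 4402 genes had r of at least 0.8. For the CIPK5 pair the other gene held rank 8127 (CIPK5-A) and 11137 (CIPK5-B), with 2 and 381 genes at r of at least 0.8. The CIPK6 genes were among the most variable within groups, with an SD of log2(FPKM + 1) of 1.26 and 1.27, larger than in 98.1% and 98.2% of genes, where the median was 0.39. CIPK5-A (0.48) exceeded 65.7% of genes and CIPK5-B (0.79) exceeded 89.4%.

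The genes with the most similar pattern over all 18 libraries are given by identifier, as description without a test. None of them is in the study's list of named K+ genes, and the deposited files give no names. For CIPK6-A these were Nitab4.5_0000397g0080 (pooled r = 0.98) and Nitab4.5_0000021g0080 (0.97), and for CIPK6-B Nitab4.5_0000241g0170 (0.98) and Nitab4.5_0000218g0050 (0.98). For CIPK5-A they were Nitab4.5_0000245g0240 (0.84) and Nitab4.5_0001031g0020 (0.81), and for CIPK5-B Nitab4.5_0001213g0060 (0.93) and Nitab4.5_0004661g0030 (0.93). The PC1 split of the libraries was not removed from these values.

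CIPK6-B separated the PC1 clusters completely. It lay between 6.54 and 80.72 FPKM (median 51.7) in the 8 libraries below 0 and between 133.95 and 276.45 FPKM (median 155) in the 10 above 0. CIPK6-A had a median of 45.6 FPKM (4.60 to 92.49) below 0 and 115 FPKM (69.63 to 181.97) above 0. CIPK5-B went the other way, with a median of 3.95 FPKM (0.12 to 7.23) below 0 and 1.45 FPKM (0.42 to 3.34) above 0, although LP2 replicate 2 had its lowest value. CIPK5-A had medians of 1.12 and 1.71 FPKM with wide overlap. In the G70 cross the CIPK6 genes were low in all replicate 1 libraries and high in all replicate 3 libraries, and in replicate 2 they were low in H and high in both parents. What sets the PC1 clusters apart is not given in the labels.

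**Figure D5:**
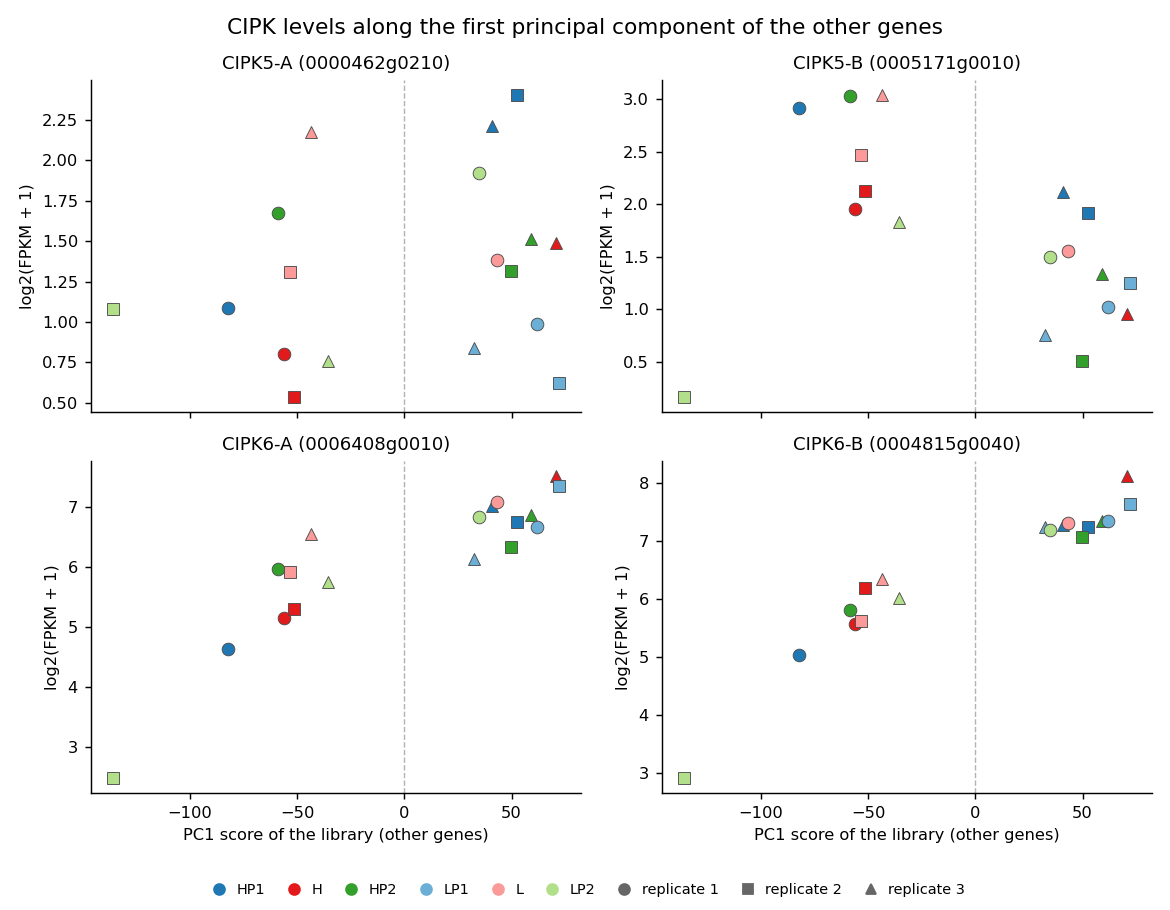
Log2(FPKM + 1) of each CIPK gene (vertical axis) against the PC1 score of the library (horizontal axis), computed over the other genes. Colour gives the group, shape the replicate, and the dashed line marks a score of 0. CIPK6-B is at most 80.72 FPKM to its left and at least 133.95 FPKM to its right, and each group except LP1 has libraries on both sides.

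The channels that the study links to these kinases were examined next, with 12 relations of deviations adjusted together. It links AKT2 and tandem-pore K+ channels to CIPK6, and GORK to CIPK5. The AKT2 gene Nitab4.5_0000816g0130 ranged from 10.6 to 46.3 FPKM. It followed CIPK6-A with r of 0.77 (exact permutation p = 0.0147, adjusted p = 0.0442) and rho of 0.65 (adjusted p = 0.0560), and CIPK6-B with r of 0.83 (adjusted p = 0.00960) and rho of 0.77 (adjusted p = 0.0140). The relation rested on few libraries. Without the 2 that deviated most r was 0.50 and 0.66. Within the PC1 clusters r was taken from log2(FPKM + 1) with group means kept, here and for the other channels. Pooled over the 18 libraries this r was 0.70 and 0.78. It was 0.90 and 0.88 in the 8 libraries below 0, with rho of 0.76 and 0.62 (permutation, adjusted p = 0.183 and 0.345). Without the 2 libraries farthest from the cluster's median of the CIPK6 gene, r below 0 was 0.60 and 0.20. In all 10 libraries above 0 r was -0.48 and -0.03, so no positive relation was seen there.

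The other AKT2 gene, Nitab4.5_0001744g0070, ranged from 42.6 to 218 FPKM and had r of -0.24 with CIPK6-A (adjusted p = 0.448) and -0.36 with CIPK6-B (adjusted p = 0.296). Its lowest library was H replicate 3 (42.59 FPKM), where both CIPK6 genes were highest, and its highest was L replicate 3 (217.88 FPKM). Neither relation passed the threshold, and size and sign differed between sets of libraries. Without the 2 libraries that deviated most, r of the deviations was -0.64 and -0.78. Deviations in the G70 cross had r of -0.72 and -0.86, and in the K326 cross 0.26 and 0.21. Below 0 on PC1 r of log2(FPKM + 1) was 0.87 (adjusted p = 0.0245) and 0.70 (adjusted p = 0.0856), and above 0 it was -0.39 and -0.54. The rho below 0 was 0.88 and 0.50 (permutation, adjusted p = 0.0869 and 0.417). Without the 2 libraries farthest from the cluster's median of the CIPK6 gene, r below 0 was 0.72 and -0.23. Of the tandem-pore K+ channels (TPKs), which in Arabidopsis sit mostly in the vacuolar membrane, Nitab4.5_0005906g0010 (2.44 to 11.0 FPKM) had r of 0.70 and 0.73 with CIPK6-A and CIPK6-B (adjusted p = 0.00772 and 0.00900), with rho of 0.74 and 0.82 (adjusted p = 0.00437 and 0.00502). Without the 2 libraries that deviated most r was 0.89 and 0.91. Within the clusters r of log2(FPKM + 1) was 0.03 and -0.21 below 0, and 0.74 and 0.55 above 0 (adjusted p = 0.185 and 0.229). The second TPK gene, Nitab4.5_0003491g0060, had r of 0.50 and 0.52 (adjusted p = 0.131 and 0.128) and rho of 0.63 and 0.68 (adjusted p = 0.0530 and 0.0437). Without the 2 libraries that deviated most r was 0.90 and 0.89. Deviations in the G70 cross had r of 0.95 with both CIPK6 genes, and in the K326 cross -0.05. Within the clusters r of log2(FPKM + 1) was 0.18 and 0.12 below 0, and 0.43 and 0.33 above 0.

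For CIPK5 the channel is GORK, which lets K+ out of guard cells. Nitab4.5_0000777g0090 ranged from 0.94 to 15.7 FPKM and Nitab4.5_0006940g0020 from 0.37 to 4.42 FPKM, so the latter was near the level of the CIPK5 genes. The 4 relations of deviations lay between -0.24 and 0.49, with adjusted p between 0.159 and 0.507. None of these passed the threshold. Within the PC1 clusters, r of log2(FPKM + 1) of CIPK5-B with Nitab4.5_0006940g0020 was 0.84 below 0 (permutation, adjusted p = 0.0245) and 0.64 above 0 (adjusted p = 0.198). The rho below 0 was 0.74 (adjusted p = 0.183). With Nitab4.5_0000777g0090 CIPK5-B was at 0.80 (adjusted p = 0.0856) and -0.63 (adjusted p = 0.198). CIPK5-A was at 0.39 and 0.42 with Nitab4.5_0006940g0020 and at -0.06 and -0.41 with Nitab4.5_0000777g0090. Of both GORK genes, Nitab4.5_0006940g0020 was lower in H than in HP1 by 1.36 on the log2 scale once the 3 libraries of the G70 cross were left out (adjusted p = 0.0434), and over all 9 libraries it was not called.

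The study's list names 22 further K+ genes (KEA, NHX1, TPC1, TPK, GORK, AKT2 and KAT1/2), of which 21 were tested, since 1 KAT1/2 gene was below the limit on low values. None of the 21 was called in any of the 11 comparisons over all libraries. At an unadjusted p, limma called 1 of 21 higher in L than in LP1, where 3.16% of all genes were called higher, and 2 of 21 higher in LP1 than in LP2, where 4.16% were. With so few genes nothing is read from these counts, and 0 were called in the other 9 comparisons. The median of the list against the mid-parent was -0.01 for H and 0.17 for L, beside -0.04 and 0.13 over all genes tested. Without the 3 libraries of the G70 cross, 2 of 21 were called lower in H than in HP1, 2 than in HP2 and 2 than the mid-parent, and 0 were called higher. Of all genes, 4.34%, 3.91% and 4.87% were called lower in these fits, and 2 of 21 was not tested against these shares. They were the TPK gene Nitab4.5_0005906g0010 in all 3 comparisons (-1.67, -1.41 and -1.54), the GORK gene Nitab4.5_0006940g0020 against HP1 and the mid-parent, and the KAT1/2 gene Nitab4.5_0005812g0020 against HP2 (-1.12).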

How the data were processed

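Total RNA of middle leaves was sequenced in 18 libraries (3 per group, 6 groups). According to the study's methods, the authors trimmed the reads, used TopHat2 for mapping to the K326 genome and RSEM for gene abundance, while the submitters' processing notes name HISAT2, StringTie and RSEM, and which of these made the table is unclear. Versions and the genome release are not given in the sources used here. The authors deposited FPKM for 69500 genes per library. The table is described as raw counts, but its values are FPKM with decimals, so a count test was not used. Further deposited tables hold the authors' mean FPKM per group. FPKM do not carry the reads per gene, so the spread between libraries sets the precision.

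Values were tested as log2(FPKM + 1) without further scaling, with limma 3.58.1 (intensity trend) in R 4.3.3, over all genes that reached 1 FPKM in 3 or more libraries of the fit. The fits covered the 9 libraries of a cross, or all 18 for comparisons between crosses. Correlations were computed in Python 3.11.15 with scipy 1.17.1, with exact permutations, or 100000 permutations where a set held 10 libraries or more and groups were not kept. The scripts were tested on simulated data.

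The rule takes the 4 genes by name, without measured values, but these genes and the lists were proposed with earlier results of these data known. Named were the 4 genes, the AKT2, GORK and TPK genes, K+ genes that were called, and for each CIPK gene the 2 genes with the highest r over all libraries. Alternatives were 3 scalings, pseudocounts of 0.1 and 0.5, 2 other filters, each library left out, 3 libraries of the G70 cross left out, a replicate block, only the groups compared, unadjusted p, a log2 fold change of 2 and no variance trend. Leaving out 4 libraries (these 3 and LP2 replicate 2) was chosen after seeing the data. The methods describe a random block design but do not say that replicate numbers mark the blocks. Deviations of same-numbered libraries correlated above 0.1 in all 3 pairs of HP1 and HP2 (0.58, 0.27 and 0.48), L and LP2 (0.54, 0.25 and 0.23) and LP1 and LP2 (0.25, 0.21 and 0.29), and not in the other pairs of groups within a cross. Of the identifiers, 0 matched the table of RefSeq genes, so sequences and coordinates are not used here. The deposited files give no gene names, and of the study's supplements only its list of K+ genes was used for names. It holds no leaf markers, so the leaf label was not checked.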

Additional observations from a re-analysis of the deposited data

Results flagged for a closer look

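CIPK5-A (Nitab4.5_0000462g0210) is singled out because all libraries of H and all of L lay on opposite sides of their mid-parent means, which 4.07% of 34960 genes also showed in this direction and 0.995% in the other. On the log2 scale its 3 H libraries lay below the mean of their parents (-0.90, -1.16 and -0.21) and its 3 L libraries above the mean of theirs (0.35, 0.28 and 1.14). Single parental libraries crossed the hybrids, since LP2 replicate 1 (2.79 FPKM) was above L replicates 1 and 2 (1.61 and 1.48) and HP2 replicate 2 (1.49) was below H replicate 3 (1.81). The effect of H minus the effect of L was -1.35 ± 0.46 (SE, n = 18 libraries), with an unadjusted p of 0.0101 and an adjusted p of 0.821 in limma, so it did not pass the adjustment over 34960 genes. Over 26 other alternatives it ranged from -2.22 to -1.07, with adjusted p between 0.391 and 1. Without the 3 libraries of the G70 cross it was -1.78 (adjusted p = 0.167). All its levels were at or below 4.30 FPKM.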

How the results depend on the processing

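The 44 log2 fold changes of the 4 genes kept their sign in 964 of 1029 values under the alternatives, and 19 of the 44 changed sign at least once. Calls changed under these settings. Without 3 libraries of the G70 cross, the genes called were 3 in H against HP1, 2 against HP2 and 3 against the mid-parent. At an unadjusted p they were 1 in L against each of LP1, LP2 and the mid-parent, and 2 for the effect of H minus that of L.

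Signs changed as follows, and the cause was not tested. Without the 3 libraries, CIPK5-B was at 0.022 in H against HP1, 0.57 against the mid-parent and -0.24 in HP2 against LP2, CIPK6-A at 0.28 in HP1 against HP2, and CIPK6-B at -1.38 in H against HP1, 0.046 in HP1 against HP2 and -0.54 in H against L. Without 4 libraries the last stayed at -0.54 and CIPK5-B in HP2 against LP2 was at -0.74. The correlation of the CIPK5 pair became 0.29 and 0.22. With median-of-ratios scaling CIPK6-B was at 0.062 in H against the mid-parent, -0.12 in L against the mid-parent and 0.18 for the difference of effects, and with quantile normalization at -0.11 and 0.095 for the last 2, with CIPK5-A at -0.062 in HP2 against LP2. With a pseudocount of 0.1, CIPK5-B was at 0.070 in LP1 against LP2. These 2 scalings moved the median of all genes by up to -0.23, in L against LP2.

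Leaving out each library in turn gave these ranges for the values that changed sign. In H against HP1, CIPK6-A ran from -0.91 to 0.29 and CIPK6-B from -0.63 to 0.64. In H against HP2, CIPK5-B ran from -0.50 to 0.76, CIPK6-A from -1.17 to 0.014 and CIPK6-B from -0.86 to 0.41. In H against the mid-parent, CIPK5-B ran from -0.57 to 0.070, CIPK6-A from -1.04 to 0.14 and CIPK6-B from -0.75 to 0.52. In HP1 against HP2, CIPK6-A ran from -0.70 to 0.50 and CIPK6-B from -0.70 to 0.51. In L, CIPK6-A ran from -0.49 to 0.11 against LP1, and CIPK6-B from -0.18 to 1.96 against LP2 and from -0.58 to 0.49 against the mid-parent. CIPK5-B ran from -0.66 to 0.18 in LP1 against LP2 and from -0.24 to 1.02 in HP2 against LP2, CIPK6-B from -0.54 to 0.73 in H against L and from -0.78 to 0.58 for the difference of effects, and the correlation of the CIPK5 pair from -0.23 to 0.10.

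Counts over all genes moved widely, from 166 to between 14 and 2297 (H against HP1), 143 to 23 and 2154 (H against HP2), 164 to 15 and 2823 (H against the mid-parent), 157 to 30 and 463 (HP1 against HP2), 57 to 0 and 2207 (L against LP1), 89 to 1 and 888 (L against LP2), 69 to 1 and 916 (L against the mid-parent), 67 to 3 and 2033 (LP1 against LP2), 55 to 6 and 637 (H against L), 1 to 0 and 450 (HP2 against LP2) and 29 to 0 and 917 (difference of effects). With the replicate number as a block (pairing), 0 of the 4 genes were called in the 9 comparisons where it could be fitted, and CIPK5-A in H against HP1 stayed at -0.96 (adjusted p = 0.781). The filter of at least 1 FPKM in every library left the CIPK5 genes out. With 3 libraries per group, 95% intervals of the CIPK6 genes spanned more than a log2 of 2, and unknown depth limits the CIPK5 values.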

Other observations

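The deposited tables of group values are means of different numbers of libraries. To within 0.0051 FPKM, 100% of genes held the mean of only replicates 1 and 2 for HP1 and likewise for H, and for HP2 that of replicates 2 and 3. In LP1, L and LP2 every replicate entered. The HP1 mean thus holds replicate 1, which is absent from the supplementary list of library values, and leaves out replicate 3. For H and HP2 the mean leaves out the library that is absent from that list. For the CIPK6 genes the choice matters. The authors' mean for H was 36.3 FPKM for CIPK6-A and 59.4 FPKM for CIPK6-B, while the mean of all 3 libraries was 84.9 and 132 FPKM. For HP1 the authors' means were 65.4 and 91.3 FPKM, against 86.5 and 112 over 3 libraries, and for HP2 they were 98.0 and 148 FPKM, against 85.8 and 117. The authors' mean of CIPK5-B in HP2 was 0.97 FPKM, against 3.03 over 3 libraries. The H libraries in the authors' mean lay below 0 on PC1 and both HP2 libraries above 0, while HP1 contributed 1 library from each side.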
